A study of Mus musculus with 9 samples.

Results

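The genes described here are the 251 of a dinaciclib table that carry an entry in the authors' column of tumour types, all of its rows. They are 251 of the 720 genes listed in either of the series' pair of tables, and 250 of them are protein-coding. Both groups are EHE17 cells, a single mouse endothelial tumour cell line with the genotype TC+/+ Cdkn2a -/-, so no result extends past this line. One group received DMSO vehicle and the other dinaciclib at 300 nM for 16 h, with 3 biological replicate libraries each, and poly(A) RNA was sequenced. The design asks which transcripts differ between them. The authors kept a gene only where their own test on these same 6 libraries called it changed by at least 2-fold, so every member was chosen for differing and a call here is no independent evidence.

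Dinaciclib is an inhibitor of several cyclin-dependent kinases, including CDK9, the kinase of P-TEFb that releases paused RNA polymerase II into productive elongation. When new transcription stops, messages with short half-lives run out first and stable ones make up more of what remains. Genes annotated to tumour types span oncogenes, tumour suppressors and fusion partners, and hold many regulators as well as housekeeping genes that are joined to an oncogene in some tumour.

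Levels are normalised counts, that is, read counts divided by the authors' size factor for the library. They state each gene relative to the rest of its own library, and in bulk RNA fewer cells and less RNA per cell cannot be told apart. Dinaciclib libraries held 2541162 to 3316779 counts and vehicle libraries 31852117 to 40020833, so the mean vehicle total was 12.2 times larger. Of the cell type markers looked for, 7 of 34 endothelial genes were in the table, led in vehicle by Kdr, and 5 of 34 immune genes. No epithelial, fibroblast or mural cell marker of those looked for was in it, and levels of unlisted markers were not analysed here.

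One dinaciclib library stood apart. Replicate 2 was the lowest of its group for 51 of the 62 higher genes, with a median of −0.20 on the log2 scale relative to the group mean, and the highest for 93 of the 186 lower genes, with a median of 0.17. Its contrast with vehicle was therefore smaller in both directions. Without it, 63 genes were higher and 186 lower of 249 tested, and the values below that moved by over 1.5-fold are given both ways.

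Quasi-likelihood testing in edgeR, adjusted by Benjamini-Hochberg, was possible for 248 genes with enough counts, of which 248 were called (100%), 62 higher (25.0%) and 186 lower (75.0%). The 3 libraries of each group did not overlap for 247 genes (99.6%), the exception being the septin gene Sept5. These shares are the background against which each gene group is read, and the median log2 change over all tested genes was −1.81. Scaling with TMM factors over the listed genes, which takes most of them as unchanged, raised the median of all genes by 1.37 on the log2 scale and gave 63 higher and 108 lower. Scaling to library totals raised it by 0.13 and gave 62 and 185. The median change was 4.65-fold among higher genes and 5.17-fold among lower ones, taking genes with 0 counts at their bound, and 10 and 20 genes passed 16-fold.

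Higher genes held a large and uneven part of the dinaciclib libraries. The listed genes took 2.57%, 2.53% and 2.57% of the counts in vehicle and 11.7%, 9.61% and 12.3% with dinaciclib. Within that, the higher genes went from 1.04%, 1.02% and 1.05% to 11.3%, 9.18% and 11.9%, and the lower genes from 1.54%, 1.51% and 1.52% to 0.377%, 0.429% and 0.366%. Thus the lower genes, which outnumber the higher ones, held the smaller part of each dinaciclib library by far. Just 4 genes made up 50% of the listed counts with dinaciclib, against 29 in vehicle.

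Per length, in FPKM, Tpm4, Calr, Msn and Ccnd1 were among the 5 highest genes in both groups. Tpm4 stood above Calr in vehicle, and Calr above Tpm4 with dinaciclib. Calr, for the calcium-binding chaperone calreticulin of the endoplasmic reticulum, took 0.0684%, 0.0664% and 0.0672% of all counts in vehicle and 2.25%, 1.71% and 2.34% with dinaciclib. Msn, for moesin, which ties cortical actin to the plasma membrane, went from 0.105%, 0.107% and 0.109% to 1.91%, 1.52% and 2.04%. Tpm4, a tropomyosin gene, went from 0.109%, 0.106% and 0.104% to 1.33%, 1.06% and 1.39%. In the vehicle top group by share of counts, the VEGF receptor gene Kdr went the other way, from 0.0834%, 0.0827% and 0.0785% to 0.0211%, 0.0163% and 0.0196%.

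For 11 genes the unscaled count was higher in every dinaciclib library than in any vehicle library, although the libraries were so much smaller. They were Calr, Msn, Aldh2, Cox6c, Ext2, Rpn1, Tfrc, Hmga1b, Crlf2, Fstl3 and Prf1. Calr gave 57114, 56758 and 66938 reads with dinaciclib and 21773, 22689 and 26904 in vehicle. Crlf2, for a receptor chain of the cytokine TSLP, gave 2118, 2411 and 2718 reads against 1330, 1521 and 1895. These genes were thus higher both with the authors' size factors and in unscaled counts. An unscaled count is not an amount per cell, which these data do not give.

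**Figure D1:**
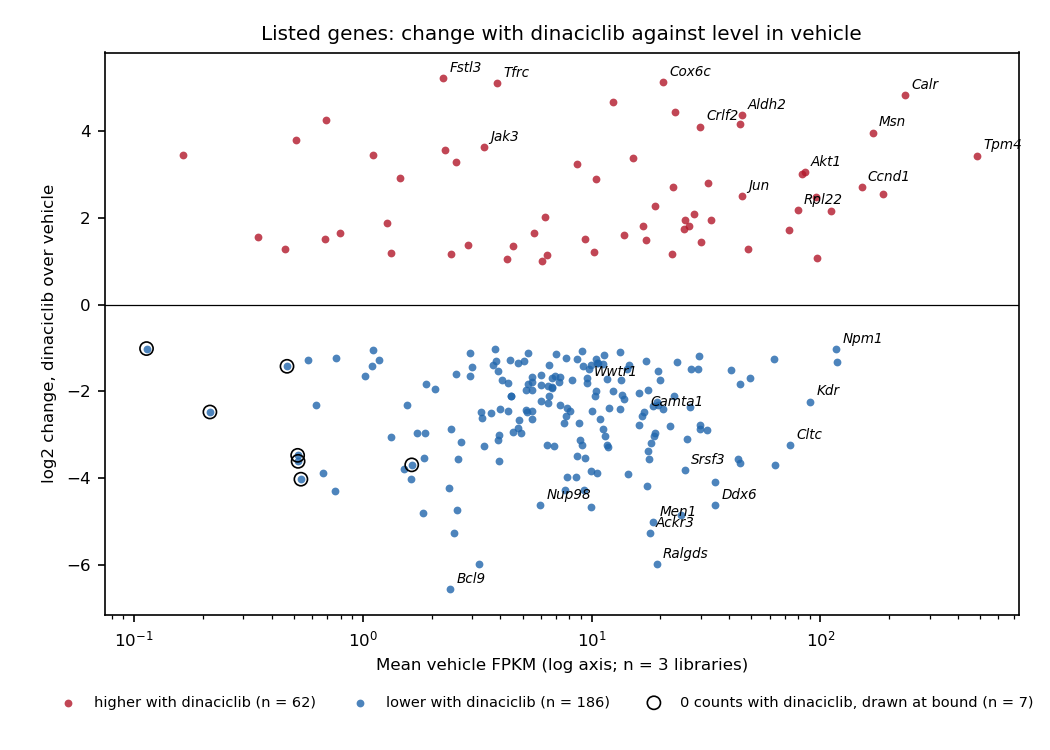
Each point is a tested gene, with its mean vehicle FPKM on a log axis and its log2 change with dinaciclib; red genes were higher, blue genes lower, and ringed genes had 0 counts with dinaciclib and are drawn at their bound. Of the genes, 62 lie above 0 and 186 below, and the band around 0 is empty because the table holds only genes past a log2 change of 1.

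Genes were ranked by size of rise among called genes whose groups did not overlap. Their mean over all 6 libraries also had to be at or above the table's median of 387 normalised counts. Fstl3, Hmga1b, Tfrc, Jak3, Chn1, Ttl and Foxo4 reach that limit only through dinaciclib, where they are high. Fstl3, Cox6c and Tfrc led, and the first 8 places all went to genes with higher unscaled counts. The next 8 were Crlf2, Msn, Jak3, Chn1, Tpm4, Nf2, Ttl and Foxo4. Crlf2 stood at 432, 459 and 488 in vehicle and 7833, 6879 and 8903 with dinaciclib. Its log2 change was 4.10 with SE 0.122 (adjusted p 3.53e-08, edgeR quasi-likelihood, Benjamini-Hochberg). Jak3, a JAK kinase gene best known from lymphocytes, stood at 179.95, 184 and 199.98 and 2740.5, 1672 and 2539. Chn1, for the Rac GTPase-activating protein chimaerin, stood at 162, 151 and 139 and 1587, 1535 and 2169. In all 3 the lowest dinaciclib library lay far above the highest vehicle library.

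Msn was among the most abundant listed genes. It stood at 10852, 11038 and 11286 in vehicle and 179663, 143712 and 191269 with dinaciclib, a log2 change of 3.96 (SE 0.140). Nf2, for merlin, a relative of moesin that acts upstream of the Hippo kinases, stood at 1079, 1052 and 1077 and 11819.96, 9193 and 12310.1, or 3.38 on the log2 scale. Ttl, for the ligase that restores the terminal tyrosine of tubulin, stood at 165, 146 and 159 and 1860.3, 1004 and 1697. For Msn, Nf2 and Ttl replicate 2 was the lowest dinaciclib library, above every vehicle value as the ranking required. Foxo4, a forkhead factor gene that AKT restrains, stood at 315, 297 and 315 and 3096, 2534 and 3145.

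The 16 largest falls by the same limits were in Ralgds, Nup98, Ddx6, Cant1, Kat6a, Srsf3, Set, Nfe2l2, Abl1, Rad21, Arid1a, Bap1, Cltc, Numa1, Map2k2 and Tpr. Abl1, Rad21, Numa1, Tpr, Ralgds, Set, Bap1, Srsf3 and Map2k2 reach the median level only through vehicle, where they are high. Cltc lay above it in both groups, and values of the other falls are not printed here. Abl1, a tyrosine kinase gene, stood at 2207, 2076 and 2133 in vehicle and 137, 231 and 174 with dinaciclib, a log2 change of −3.55 with SE 0.177 (adjusted p 3.13e-07, edgeR quasi-likelihood, Benjamini-Hochberg). Rad21, the cohesin subunit cut at anaphase, stood at 1958, 1861 and 1903 and 133, 214 and 138. Cltc, for the clathrin heavy chain, was the most abundant of them, at 6888, 6314 and 6249 and 658, 770.4 and 619, and its dinaciclib libraries were close to each other. Numa1, which anchors microtubules at spindle poles, stood at 2145, 2135 and 2154 and 292, 297 and 157, with replicate 3 apart from the other two. Tpr, of the nuclear basket of the pore, stood at 2033, 2058 and 2057 and 348, 177 and 272.

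Some of these falls rest on uneven libraries. Ralgds, for an exchange factor of Ral GTPases, had 29.6, 25.7 and 3.28 with dinaciclib against 1265, 1172 and 1243 in vehicle, the lowest being a single read. Set, a histone chaperone gene, had 70.3, 239.7 and 295 against 2694, 2580.4 and 2753, with replicate 1 far below the others. Bap1, for a nuclear deubiquitinase, had 55.5, 146 and 39.3 against 860.5, 828 and 866, and its log2 change of −3.37 became −4.18 without replicate 2. Groups that do not overlap were a condition of the ranking, so they add no support for these 3 genes.

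**Figure D2:**
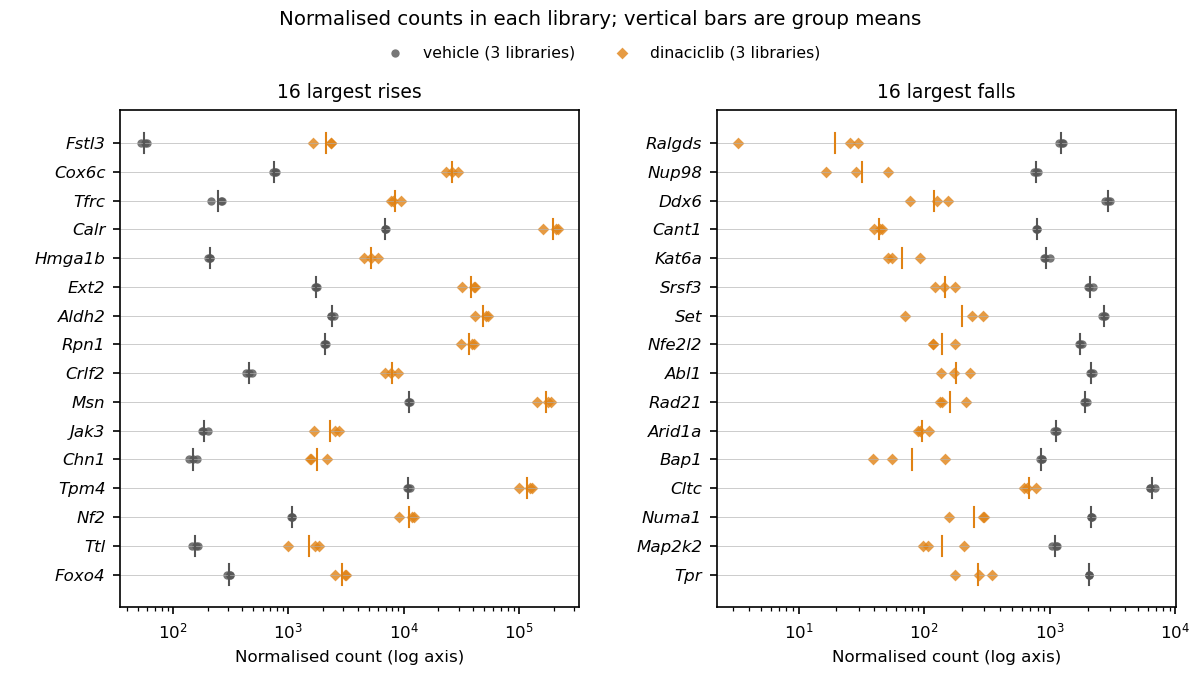
Normalised counts on a log axis for the 16 largest rises (left) and the 16 largest falls (right) among called genes whose mean over all 6 libraries was at or above the table's median, with a grey circle for each vehicle library, an orange diamond for each dinaciclib library and a bar at each group's mean. Groups that do not overlap were a condition of this ranking. The dinaciclib libraries lie further apart among the falls, as for Ralgds (29.6, 25.7 and 3.28).

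Promoter windows from RefSeq (GRCm38.p6, 250 bases before to 50 after the annotated start) were matched for 196 of the 251 genes. They are shown for 3 of the largest rises and 2 of the largest falls, 5′ to 3′ on the gene's strand. Capitals mark the TATA box motif TATAAA, the CCAAT box, the GC box core GGGCGG or the endoplasmic reticulum stress element (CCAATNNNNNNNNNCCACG), each searched on both strands; the last contains a CCAAT and overlaps it.

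Calr, higher, chr8:84846882-84847181, minus strand: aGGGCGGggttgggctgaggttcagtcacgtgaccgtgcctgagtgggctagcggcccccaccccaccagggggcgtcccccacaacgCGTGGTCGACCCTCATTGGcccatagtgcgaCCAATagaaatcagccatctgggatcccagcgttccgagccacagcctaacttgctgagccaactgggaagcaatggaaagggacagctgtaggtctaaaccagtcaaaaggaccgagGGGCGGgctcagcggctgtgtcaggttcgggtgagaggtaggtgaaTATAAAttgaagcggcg

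Tfrc, higher, chr16:32608646-32608945, plus strand: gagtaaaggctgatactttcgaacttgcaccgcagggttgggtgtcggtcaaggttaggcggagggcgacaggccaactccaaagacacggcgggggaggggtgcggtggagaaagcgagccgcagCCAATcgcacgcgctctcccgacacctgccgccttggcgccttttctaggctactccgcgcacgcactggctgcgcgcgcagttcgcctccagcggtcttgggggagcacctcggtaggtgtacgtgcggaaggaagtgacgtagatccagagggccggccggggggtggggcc

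Fstl3, higher, chr10:79777024-79777323, plus strand: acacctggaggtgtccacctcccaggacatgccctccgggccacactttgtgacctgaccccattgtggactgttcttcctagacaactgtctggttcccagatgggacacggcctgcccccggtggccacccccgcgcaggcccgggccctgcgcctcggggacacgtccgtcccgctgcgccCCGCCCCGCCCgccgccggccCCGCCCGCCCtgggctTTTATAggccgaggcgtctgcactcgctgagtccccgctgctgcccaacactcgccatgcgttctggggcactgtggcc

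Srsf3, lower, chr17:29032410-29032709, plus strand: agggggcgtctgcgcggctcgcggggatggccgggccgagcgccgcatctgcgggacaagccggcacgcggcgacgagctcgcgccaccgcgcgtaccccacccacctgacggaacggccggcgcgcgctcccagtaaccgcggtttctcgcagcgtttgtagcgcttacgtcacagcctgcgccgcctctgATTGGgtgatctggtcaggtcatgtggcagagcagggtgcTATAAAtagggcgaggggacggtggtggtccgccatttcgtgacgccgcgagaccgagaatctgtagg

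Nup98, lower, chr7:102210117-102210416, minus strand: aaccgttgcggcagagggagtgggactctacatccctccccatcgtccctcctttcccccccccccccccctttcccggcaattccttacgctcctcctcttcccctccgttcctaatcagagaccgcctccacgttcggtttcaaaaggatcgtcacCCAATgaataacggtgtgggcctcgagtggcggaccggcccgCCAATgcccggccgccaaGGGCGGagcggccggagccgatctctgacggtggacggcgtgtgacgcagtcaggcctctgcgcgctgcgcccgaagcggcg

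The Calr window held 1 stress element, 2 CCAAT, 2 GGGCGG and 1 TATAAA, that of Fstl3 1 TATAAA and 4 GGGCGG, and that of Tfrc 1 CCAAT. The falling Srsf3 held 1 TATAAA and 1 CCAAT, and Nup98 2 CCAAT and 1 GGGCGG, so the same short motifs stand on both sides. Over the tested genes with a window, GGGCGG, the core of the GC box, was in 65.2% of 46 higher and 73.8% of 149 lower genes, and in 35.7% of all 32851 RefSeq windows. CCAAT was in 41.3%, 38.3% and 37.4% of these, and TATAAA in 6.52%, 6.04% and 13.6%. CACGTG, the E-box of MYC and MAX, was in 13.0%, 13.4% and 7.15%. TGACTCA, the AP-1 site, was in 4.35%, 3.36% and 5.20%. Among the 196 listed genes with a window the stress element was in that of Calr and no other, and in 0.119% of all windows. The listed genes' windows thus held GC boxes more often and TATA boxes less often than all RefSeq windows, with similar shares in higher and lower genes. The sets are unlike, however. Each listed gene has 1 window, while the full set takes every RefSeq window, with no limit to 1 per gene, to protein-coding genes or to expressed genes. No test was made, and a match of letters is not a bound site.

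Cytoskeleton, adhesion and membrane genes gave 5 higher and 8 lower of 13, with a median log2 change of −1.32 that turned to 0.06 with TMM factors. The higher ones are Tpm4, Msn, Lpp, Sdc4 and Lcp1. Sdc4, for the heparan sulfate proteoglycan syndecan 4, stood at 588, 604 and 600.2 and 4072, 3567 and 4104. Lcp1, for the actin-bundling plastin, stood at 3059, 2913 and 2868 and 8077, 6748 and 9116, and Lpp, a LIM protein of focal adhesions, at 1489, 1452 and 1443 and 3033, 3409.7 and 3197. The lower ones are Cltc, its partner Hip1 (1382 ± 86.1 with dinaciclib against 3889 ± 47.3 in vehicle, SD, n = 3), the kinesin gene Kif5b, the dynein adaptor gene Hook3, the actin-binding gene Lasp1, Erc1, Gopc and Cnbp, the last for a nucleic acid binding protein. With TMM factors Hip1, Lasp1 and Erc1 lost their calls, and Kif5b and Cnbp changed sign.

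PI3K, mTOR and AKT genes gave 5 higher and 7 lower of 12 (median −1.54), and the split ran through the pathway. The kinase genes themselves were higher: Akt1 stood at 3726, 3366 and 3771 in vehicle and 30249, 25531 and 34499.8 with dinaciclib, 3.05 on the log2 scale. Akt2 stood at 307, 321 and 319 and 673, 499 and 789. Ppp2r1a, the scaffold of the phosphatase PP2A, which dephosphorylates AKT, stood at 3098, 2779 and 2897 and 25223, 19793 and 25858. Upstream, both listed subunit genes of PI3K were lower, the catalytic Pik3ca at 615, 609 and 595 and 122, 171 and 81.9 and the regulatory Pik3r1 at 461, 422 and 463 and 77.7, 108 and 58.96. Flcn, for folliculin, was lower too. With TMM factors Flcn, Tsc1, Foxo1 and Foxo3 lost their calls.

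RAS, MAPK and small GTPase genes gave 2 higher and 10 lower of 12 (median −1.44). The 2 higher ones encode G protein alpha subunits. Gna11 stood at 1116, 1038 and 1078 and 3887, 2947 and 3967. Gnas stood at 1356, 799 and 1469 and 10263, 7784 and 8933, with vehicle replicate 2 well below the others and the groups still apart; it is a complex locus whose transcripts a gene count does not separate. The MEK kinase genes were lower, Map2k1 at 667, 701 and 670.3 and 77.7, 211 and 134 and Map2k2 at 1134, 1049 and 1119 and 207, 97.01 and 108. Elf4, also on the list, encodes an ETS factor.

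Receptor tyrosine kinase and ligand genes were lower, 4 of 4 tested, beside 75.0% over all tested genes. Besides Kdr and Fgfr1 they were Erbb2, at 510.3, 499.9 and 487 in vehicle and 44.4, 34.2 and 0 with dinaciclib, and the ligand gene Pdgfb, at 133, 135 and 149 and 0, 5.71 and 0. For Erbb2 replicate 3 held 0 reads, and for Pdgfb replicate 2 alone held any. Flt3 and Ntrk3, which the authors' table gives as higher, had too few counts to test.

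JAK-STAT, cytokine and NF-kappaB genes gave 3 higher and 9 lower of 12 (median −1.90). Crlf2 and Jak3 were higher, with the ubiquitin ligase gene Traf7 at 1379, 1367 and 1348 and 3251, 2791 and 3076. Genes of the BCL10 and MALT1 complex, which relays receptor signals to NF-kappaB, were lower. Bcl10 stood at 471, 477 and 454 and 25.9, 5.71 and 26.2, and Malt1 at 157, 174 and 153 and 33.3, 8.56 and 19.7. Of the factors below them, Stat3 stood at 1265, 1229.6 and 1168 and 277, 328 and 321 and the NF-kappaB subunit gene Rel at 154, 142 and 142 and 70.3, 37.1 and 19.7. Stat5b and Nfkb2 were lower in the main scaling and changed sign with TMM factors, where Rel lost its call.

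Notch, Wnt, Hedgehog and TGF-beta genes gave 3 higher and 11 lower of 14 (median −2.10). In the Hedgehog pathway the signal transducer gene Smo was higher, at 1474, 1462 and 1509 and 6224, 4999 and 5841. The genes of its restraints were lower, the receptor gene Ptch1 at 570.1, 615 and 608 and 88.8, 328 and 111 and the GLI inhibitor gene Sufu at 501, 470.4 and 507 and 70.3, 71.3 and 13.1. The log2 change of Ptch1 (−1.73) was −2.57 without replicate 2, and its call was lost with TMM factors. In the Wnt pathway, 4 of 4 genes on the list were lower, beside 75.0% over all tested genes. They were Axin1 (59.2, 22.8 and 6.55 with dinaciclib against 417, 421 and 413), Apc (292, 299.6 and 124 against 1290.2, 1341 and 1286) and Amer1 of the beta-catenin destruction complex, and the co-activator gene Bcl9 (0, 5.71 and 0 against 192, 221 and 216). Axin1 went from −3.88 to −4.77 on the log2 scale without dinaciclib replicate 1, and Amer1 from −2.96 to −3.85 without replicate 2. Smad4, shared by the TGF-beta and BMP branches, stood at 1085, 957 and 1047 and 211, 274 and 111.

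Transcription factor genes were mostly lower, 30 of the 34 tested on the list, beside 75.0% over all tested genes. Their median log2 change was −2.22. By the authors' own family column, 5 of 50 genes with a factor family were higher (10.0%), against 57 of 198 without one (28.8%). The 5 were Jun, Hey1, Etv4, Foxo4 and Hmga1b. Lyl1, a bHLH factor gene of blood and endothelium, stood at 654, 632 and 649 in vehicle and 51.8, 37.1 and 26.2 with dinaciclib. Max, the obligate partner of MYC proteins, stood at 527, 520.2 and 556 and 18.5, 25.7 and 62.2, and its log2 change of −3.90 was −4.56 without replicate 3. Tfeb, the lysosomal gene regulator, stood at 108, 110.2 and 111 and 22.2, 5.71 and 16.4. In the main scaling none of the 5 zf-C2H2, 4 ARID and 4 HMG genes was higher; with TMM factors the ARID gene Arid2 and several other factor genes lost their calls, and 10 genes with a factor family changed sign, namely Etv6, Elf4, Creb1, Arnt, Stat5b, Nfkb2, Zfp384, the ARID gene Kdm5a and the HMG genes Cic and Pbrm1.

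Chromatin genes were mostly lower in each of 3 lists, beside 75.0% lower over all tested genes. They were 8 of 9 for SWI/SNF and remodelling (median −3.12), 11 of 12 for Polycomb and histone methylation (median −2.53), and 12 of 13 for acetylation and co-regulators (median −2.42). These lists are small, and whether they differ from that share was not tested. The acetylation list also holds Acsl3, which encodes an acyl-CoA synthetase. Men1, for menin, which tethers MLL methyltransferases, stood at 655, 627 and 705 in vehicle and 11.1, 14.3 and 36.03 with dinaciclib, and its log2 change of −5.01 was −5.68 without replicate 3. Ep300, for an acetyltransferase of enhancers, stood at 809.8, 822 and 805 and 48.1, 185 and 151. Asxl1 stood at 1283, 1252 and 1280.001 and 222, 228 and 189.99. The higher ones were Hmga1b, Kmt2c and Med12. With TMM factors Pbrm1, Kdm5a and Brd3 changed sign, and Arid2, Setd2, Kat6b, Maml2, Trim33 and Mecom lost their calls.

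DNA repair genes gave 6 higher and 14 lower of 20 (median −1.97). Of the nucleotide excision repair genes, Ddb2, which recognises ultraviolet lesions, was higher, at 11.4, 16.9 and 15.2 and 203, 159.8 and 246. The helicase genes of TFIIH were lower, Ercc3 at 544, 527 and 527 and 66.6, 48.5 and 62.2 and Ercc2 at 105, 121 and 121 and 7.40, 28.5 and 0, as were Xpa and the nuclease gene Ercc4. The log2 change of Ercc2 (−3.15) was −5.04 without replicate 2 and that of Xpa (−2.47) −3.48 without replicate 1. The mismatch repair genes Msh6 and Pms1 were lower. With TMM factors Pms1 lost its call, and it moved from −2.32 to −3.98 without dinaciclib replicate 1. Sbds, also on the list, is better known for ribosome maturation, and stood at 654, 709.8 and 677 and 4967, 4297 and 4910.3.

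Of 15 genes for RNA splicing, processing and decay, 6 were higher and 9 lower (median −1.39). The higher ones include Hnrnpa2b1 (6499.8, 6505 and 6427 in vehicle, 36444, 31540.4 and 40216 with dinaciclib), Ewsr1 (1638, 1785 and 1688 and 7089.8, 6563 and 8071), its relative Taf15 (512, 514 and 490.1 and 1860.3, 1729 and 1709.9) and the paraspeckle gene Nono (3285, 3218 and 3381 and 10999, 9715 and 11966). Among the lower ones, Srsf3, a splicing activator, stood at 1994, 2063 and 2198 and 122, 143 and 177, and Thrap3 at 2197, 2179 and 2158 and 484, 488 and 557. The branch-site partner U2af1 stood at 413, 419 and 400.5 and 266, 54.2 and 128, and its log2 change of −1.50 was −2.21 without replicate 1. Ddx6 of P-bodies and Cnot3 of the deadenylase complex were lower as well. With TMM factors Dicer1 changed sign, and U2af1 and Fip1l1 lost their calls.

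Ribosome and translation genes gave 3 higher (Rpl22, Eif4a2, Sbds) and 1 lower of 4. The lower one, the nucleolar chaperone gene Npm1, stood at 3253, 3130.4 and 3299 and 1490.4, 1541 and 1713 and changed sign with TMM factors; like Rpl22 and Hnrnpa2b1 it has processed copies in the genome that may take or give reads. Nuclear pore genes were lower, 3 of 3, beside 75.0% over all tested genes, and Nup214 changed sign with TMM factors. Chaperone genes were higher, 2 of 2, Calr and Hsp90aa1, beside 25.0% over all tested genes. Of the 18 genes on that list, only these 2 are among the genes described here. Npm1 and Set, called chaperone genes above, are not on it and were lower in the main scaling.

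ER, Golgi and glycosylation genes gave 5 higher and 9 lower of 14 (median −1.77). Among the higher ones were Calr, the oligosaccharyltransferase gene Rpn1, Ext2, and Sdc4, whose product passes through these compartments. Lower were Cant1, the golgins Golga5 and Trip11, Tfg of ER exit sites, Ext1, Creb3l1, Herpud1, Slc45a3 and Gmps. The last, also on the list, encodes GMP synthetase. Herpud1, of ER-associated degradation, had 3.70, 2.85 and 81.9 with dinaciclib against 281, 282 and 294, so that replicate 3 held nearly all of its reads; its log2 change of −3.28 was −6.44 without that library and −2.66 without replicate 2. Mitochondrial genes gave 6 higher and 4 lower of 10 (median 1.40). In the iron and transport list 4 were higher, among them Tfrc, Cox6c and Aldh2, and 4 lower.

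Ubiquitin and proteolysis genes gave 2 higher, Mdm2 and Traf7, and 9 lower of 11 (median −1.99). Vhl, the substrate receptor for hypoxia-inducible factors, stood at 261, 278 and 267 and 36.98, 28.5 and 6.55. Pml, of nuclear bodies, stood at 777, 789 and 819 and 137, 183 and 203. Fbxw7 and Fbxo11, of SCF ligases, were lower and changed sign with TMM factors. Cell cycle genes gave 6 higher and 6 lower of 12, with a median of −0.21 that turned to 1.16 with TMM factors; the list holds the septins Sept5 and Sept6. Short-lived regulators gave 3 higher, Jun, Hey1 and Ccnd1, and 3 lower, Klf6, Bcl6 and Pim1. Their median of −0.08 turned to 1.30 with TMM factors and to 0.06 with library totals. The p53 and apoptosis list gave 3 higher and 4 lower of 7, and elongation and Mediator genes 1 and 5 of 6.

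Among endothelial genes 1 was higher, Hey1, and 6 were lower (median −2.31), the latter with Lyl1 and the bHLH partner gene Tal1 (170.1, 334 and 95 against 759, 817 and 808, a log2 change of −1.97, or −2.61 without replicate 2; its call was lost with TMM factors). The 4 tested immune genes were lower, beside 75.0% over all tested genes. Their vehicle means were 63.4 ± 6.03 for Il21r, 45.8 ± 3.12 for Lck, 18 ± 1.22 for Bcl11b and 6.54 ± 1.13 for Prdm1. These are low levels beside Kdr at 8417 ± 279.9 (SD, n = 3). The other immune gene listed, Cd74, which the authors' table gives as higher, had too few counts to test. Jak3, best known from lymphocytes, is not among the tested immune genes and was higher. Of the 3 genes whose tumour entry names haemangioendothelioma or angiosarcoma, Wwtr1, Camta1 and Kdr, 0 were higher, beside 25.0% over all tested genes. Wwtr1 and Camta1 are the partners of the TAZ-CAMTA1 fusion of epithelioid haemangioendothelioma. A gene count would not separate reads of such a fusion from those of either gene alone. Wwtr1 stood at 459.6, 457 and 498 in vehicle and 126, 148 and 131 with dinaciclib, and Camta1 at 2573, 2528 and 2549 and 359, 536 and 465; Wwtr1 lost its call with TMM factors.

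**Figure D3:**
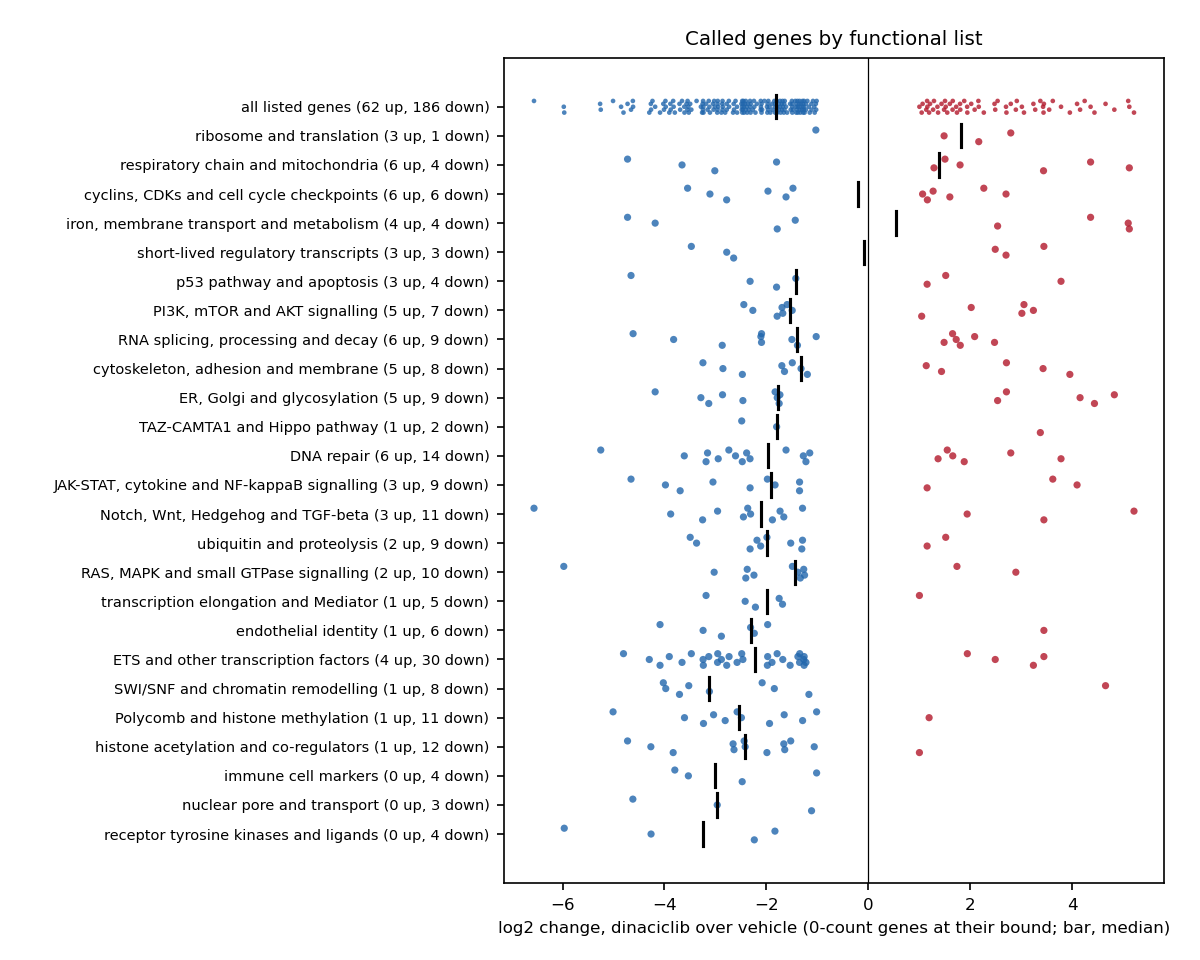
Log2 change of every tested gene by functional list, ordered by the share of higher genes, with red for higher, blue for lower and a black bar at the list's median (genes with 0 counts at their bound). Ribosome, mitochondrial and transport lists have medians above 0. The nuclear pore (3 tested), receptor kinase (4 tested) and immune (4 tested) lists have no higher tested gene, against 62 of 248 over all tested genes.

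By tumour type entry, genes with leukaemia or lymphoma numbered 31 higher of 134 (23.1%), near the background. Genes with a sarcoma entry numbered 10 of 22 (45.5%), namely Ewsr1, Taf15, Chn1, Hey1, Jun, Ext2, Etv4, Stag2, Mdm2 and Recql4. Genes with a colorectal entry numbered 2 of 17 (11.8%), and those with a breast entry 2 of 12 (16.7%). The search words were chosen after the entries were read, a gene can carry several entries, and no test was made.

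Some families and complexes held listed members on both sides of 0. In 32 families and complexes with at least 2 tested members, put together after the values were seen, 17 had lower members throughout, 5 had higher members throughout and 10 had both, beside 25.0% higher and 75.0% lower over all tested genes, so a divided family is not in itself a result. Among JAK kinases, Jak3 was higher and Jak2 lower, at 436, 439.6 and 461 in vehicle and 40.7, 25.7 and 19.7 with dinaciclib. The heparan sulfate polymerase acts as a dimer of EXT1 and EXT2. Ext2 stood at 1790.1, 1721 and 1755 and 41052, 31800.1 and 41309.95, and Ext1 at 697, 671 and 687 and 170.1, 157 and 285; both had vehicle libraries close together, and their dinaciclib libraries lay on opposite sides of them. The TSC complex restrains mTORC1; Tsc2 stood at 621, 604 and 639 and 2552, 2214 and 2797 and its partner Tsc1 at 335, 303 and 301 and 77.7, 134 and 95.

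Of the FOXO genes, Foxo4 was higher while Foxo1 (496, 471 and 502 and 111, 243 and 98.3) and Foxo3 (433, 456 and 403 and 126, 151 and 95) were lower. In cohesin, the ring subunit gene Rad21 was lower, and Stag2, for a subunit that binds the ring, was higher, at 1151, 1197 and 1189 and 3946, 3204 and 3580.3. Of the acyl-CoA synthetases, Acsl6 stood at 14.9, 19.3 and 15.98 and 141, 174 and 229 and Acsl3 at 124, 110.2 and 113 and 7.40, 0 and 6.55; the log2 change of Acsl3 was −4.72, or −4.05 without replicate 2. Of RecQ helicases, Recql4 was higher at 32.2, 40.2 and 35.05 and 48.1, 99.9 and 187, and Blm lower at 112, 99.6 and 109 and 29.6, 77.04 and 19.7. The call of Blm was lost without any 1 vehicle library, and its log2 change of −1.27 was −2.13 without dinaciclib replicate 2.

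With TMM factors Blm, Brca2 and Etv6 of these families changed sign and Ext1, Tsc1, Foxo1 and Foxo3 lost their calls, while Jak2 and Jak3, Rad21 and Stag2, and Acsl3 and Acsl6 kept opposite calls. In 8 of the 10 divided families the higher members had the shorter median transcript, and in 7 the shorter median span. Over all tested genes, too, the higher ones had the shorter median transcript (2858 against 4215 bases). The families were put together after the values were seen, so these counts are no separate evidence on length. For the FOXO genes the transcript was 3162 bases for Foxo4 and 8665 and 6848 for Foxo1 and Foxo3. For the EXT genes it was 2871 for Ext2 and 7663 for Ext1. The exceptions on transcript length were cohesin and the Fanconi anaemia genes, where Fancf was lower with 1691 bases and Fanca higher with 4485.

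**Figure D4:**
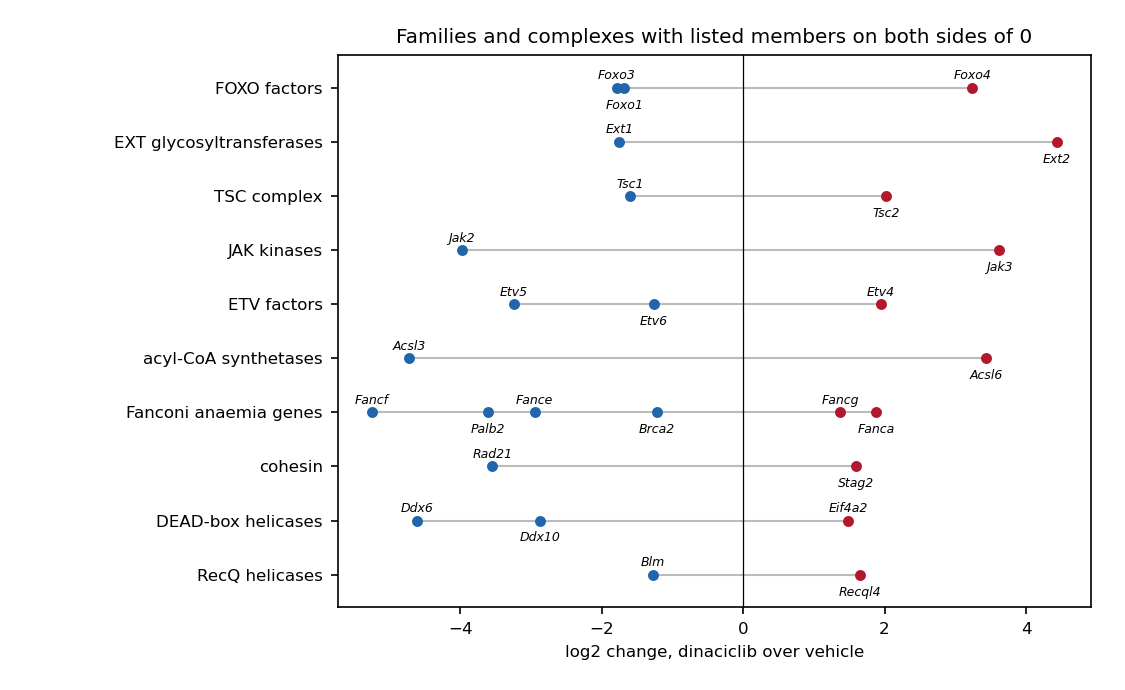
Log2 change with dinaciclib of each tested member (red higher, blue lower) in the 10 families or complexes with members on both sides of 0; Palb2, with 0 counts, is drawn at its bound. The widest gaps are between Jak3 and Jak2 (3.62 and −3.98) and between Acsl6 and Acsl3 (3.44 and −4.72).

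Gene structure, which the table's rule did not use directly, is described next for higher and lower genes. Structure was read from the main transcript in GENCODE M21, in which all 251 genes are found. The median main transcript was 2858 bases in higher genes and 4215 in lower genes. The median genomic span was 20.9 and 47.8 kb, beside 17.4 kb over 21951 protein-coding genes of GENCODE M21. In 4 bins of transcript length, 28 of 62 genes were higher in the shortest (45.2%), then 16 of 62, 15 of 62 and 3 of 62 in the longest (4.84%). The share thus went down from bin to bin, and the 3 higher genes of the longest bin were Lpp, Med12 and Kmt2c.

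Medians were smaller in higher genes for each part of the gene, but not for the number of exons. Coding sequence had a median of 1443 bases in higher and 2178 in lower genes, the 3′ UTR 899 and 1310, the 5′ UTR 205 and 246, and the longest intron 4993 and 12155. The median number of exons was 12 in both. In 4 bins of span, 25 of 62 (40.3%), 21 of 63 (33.3%), 5 of 61 (8.20%) and 11 of 62 (17.7%) genes were higher. The rise from the third to the longest bin shows that span did not order the shares evenly. Median transcript GC content was 51.3% in higher and 50.0% in lower genes. In 4 bins of GC content, 7 of 62 genes were higher in the lowest (11.3%), then 21 of 63 (33.3%), 19 of 61 (31.1%) and 15 of 62 (24.2%), so the lowest bin lay below the others.

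Level in vehicle also differed and was looked at together with span. Median vehicle FPKM was 16.0 in higher and 7.72 in lower genes. In 4 bins of vehicle FPKM, 17 of 60, 7 of 63, 9 of 62 and 29 of 63 (46.0%) were higher, so both ends exceeded the middle; this level also enters the log2 change. Among genes at or above the table's median FPKM of 8.58, the span bins gave 16 of 37 (43.2%), 15 of 37 (40.5%), 2 of 27 (7.41%) and 5 of 25 (20.0%) higher. Below it they gave 9 of 25 (36.0%), 6 of 26 (23.1%), 3 of 34 (8.82%) and 6 of 37 (16.2%). The lower shares in long genes were thus present at both levels. Length and level were not separated further, and no test was made over genes.

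Length went with direction but not with the size of a change in one way. Among the 186 lower genes Spearman's rho of span with the log2 change was 0.35, so shorter listed genes tended to have the larger falls. The listed genes were picked by a test on read counts, and how that bears on this value was not tested. Among the 62 higher genes rho was −0.14. Over all 248 it was −0.02. These are descriptions across genes, which share 6 libraries and are not independent replicates. The longest genes show both directions: Camta1 (945 kb), Foxp1 (597 kb) and Mecom (597 kb) were lower, and Lpp (599 kb) was higher. Mecom stood at 259, 269.6 and 265 and 48.1, 134 and 16.4, with a log2 change of −1.94 that was −3.08 without replicate 2 and lost its call with TMM factors.

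**Figure D5:**
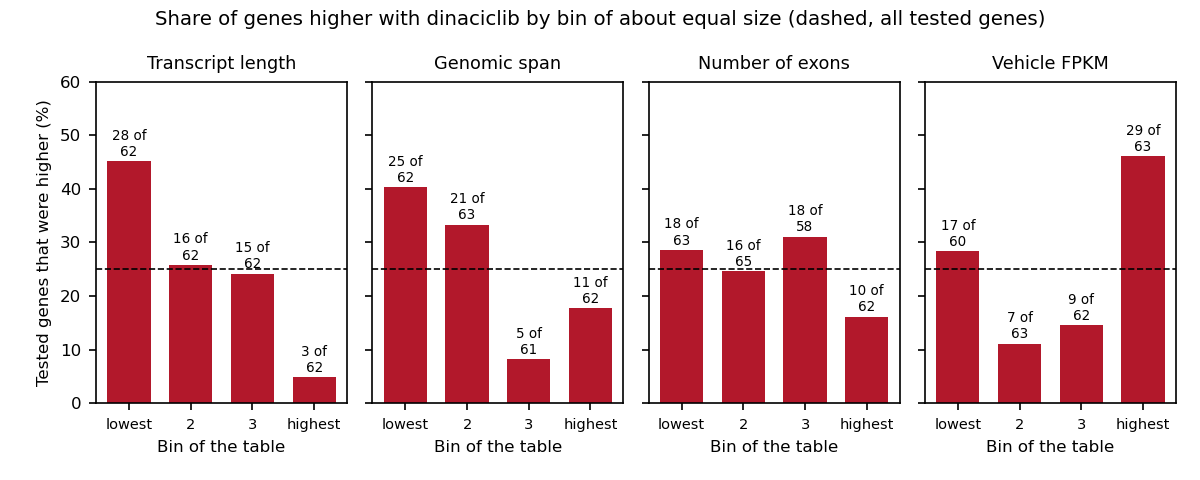
Share of tested genes that were higher with dinaciclib in each of 4 bins of the table by main transcript length, genomic span, number of exons and vehicle FPKM, with the number of genes over each bar and the share over all tested genes (25.0%) as a dashed line. The share falls from 45.2% to 4.84% over the bins of transcript length and is highest, at 46.0%, in the top bin of vehicle FPKM.

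Genes whose main transcript is a single exon need no splicing. There were 8, of which 3 were higher and 5 lower. Jun, the AP-1 factor gene, stood at 1442, 1467 and 1571 in vehicle and 8355, 9139 and 7691 with dinaciclib, 2.49 on the log2 scale. Hmga1b stood at 203, 211 and 211 and 5241, 4557 and 5955; it is a near-copy of Hmga1, and reads may be shared. Gm6768, a processed pseudogene with the same limit, stood at 91.3, 91.5 and 82.5 and 189, 171 and 321. Among the lower ones, Maf stood at 1777, 1551 and 1638 and 544, 454 and 721 and lost its call with TMM factors. Cebpa stood at 142, 118 and 143 and 22.2, 28.5 and 0, a log2 change of −2.95, or −3.68 without replicate 2. Fancf had 0, 2.85 and 0 against 46.5, 44.7 and 39.9, its reads being in replicate 2 alone. Bmyc had 7.40, 0 and 0 against 29.2, 25.4 and 24.7, its reads being in replicate 1 alone, and lost its call with TMM factors. Shares of higher genes were 11 of 38 with 2 to 5 exons, 32 of 108 with 6 to 15 and 16 of 94 with 16 or more.

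In 7 genes no read was seen in any dinaciclib library, and their falls are bounds from a floor of 3 counts over the group, which covers counting error only. Bcl7a, of SWI/SNF, had 55.5, 51.02 and 51.3 normalised counts in vehicle and was at least 16.2-fold lower. Bcl3, an IkappaB-like co-activator, had 42.6, 44.1 and 38.9 and was at least 12.9-fold lower. Palb2, the partner of BRCA2, was at least 12.2-fold lower, and Bcl6 at least 11.1-fold. Bcl11b, Fas and Prdm1 had vehicle means of 18 ± 1.22, 8.68 ± 1.27 and 6.54 ± 1.13 (SD, n = 3) and were at least 5.56-fold, 2.68-fold and 2.02-fold lower. With so few counts in vehicle, the depth of the dinaciclib libraries sets these limits.

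Another 3 genes that the authors' table gives as higher had too few counts to test. Flt3 had 0, 1 and 1 reads in vehicle and 7, 0 and 4 with dinaciclib, Ntrk3 0, 0 and 0 and 0, 3 and 2, and Cd74 5, 1 and 1 and 1, 0 and 15. In each at least 1 dinaciclib library held no read, and Cd74 rests on replicate 3. Genes just inside the authors' limit were, in the authors' deposited table, Med12 at 1.00 and Akt2 at 1.05 among higher genes and Dicer1 at −1.03, Npm1 at −1.03 and Wdcp at −1.05 among lower ones, all on the log2 scale. Values of genes outside it were not analysed here.

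The precision of a value followed its reads. The median coefficient of variation over the 3 vehicle libraries was 3.91% in higher and 3.32% in lower genes, and over the dinaciclib libraries 13.8% and 35.9%. Lower genes had a median of 104 reads summed over the dinaciclib group and higher genes 3137. Within the dinaciclib group, genes with under 30 reads had a median coefficient of 91.3%, those with at least 30 but under 300 had 32.8% and those with at least 300 had 13.2%, which is still above the 3.32% of vehicle genes with at least 300 reads. Among genes with a mean over both groups at or above the table's median, the widest relative spreads were those of Ralgds, Fli1 and Ptch1 with dinaciclib, Ralgds with 18 reads in that group, and of Gnas, Tfrc and Slc45a3 in vehicle. Fli1, an ETS factor gene of endothelium, had 104, 279.6 and 75.3 against 1141, 1138 and 1176, and its log2 change of −2.88 was −3.70 without replicate 2. Slc45a3, for a solute carrier, had 817, 664 and 727 in vehicle and 229, 168 and 269 with dinaciclib, and lost its call with TMM factors.

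The series also treated the same cells with MGH-CP1 at 10 µM for 16 h, which blocks TEAD palmitoylation, against the same vehicle libraries. Bcl11b is in that table too. In the authors' deposited table its log2 change with MGH-CP1 was −1.41. With dinaciclib it held 0 counts and was at least 5.56-fold lower. The comparisons share their vehicle libraries and were normalised separately, and their difference was not tested.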

How the data were processed

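Poly(A) RNA sequencing of 3 vehicle and 3 dinaciclib libraries was used. Per the submitters' processing notes, the authors used HISAT2 2.0.5, fastp, DESeq2 1.20.0 and featureCounts 1.5.0-p3; the build is not given in the sources used here. Per the file headers, the authors deposited raw counts, a normalised signal (count divided by 1 size factor per library), FPKM, and their log2 fold changes and p-values. Size factors and library totals were recovered from these values. GENCODE M21 holds all 251 identifiers, and 242 (96.4%) at identical coordinates, so coordinates were taken as GRCm38. The libraries carry no strand mark, per the labels' protocols.

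Counts were fitted with edgeR 4.0.16 (R 4.3.3; robust quasi-likelihood test, two-sided, no covariate, the authors' size factors, minimum count 10), with Benjamini-Hochberg adjustment at 0.05, and the script was tested on simulated data. The size factors replaced TMM over the listed genes, which assumes that most of those are unchanged. Whether the authors' size factors hold where many transcripts change could not be checked from the listed genes. No replicate pair was within sampling noise: chi-square was 5.53 to 14.4 times its degrees of freedom. The labels name biological replicates without saying what was separate, so p-values measure the spread between these libraries.

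The members, 28 functional lists and tests were chosen with earlier results of these data known. Genes were named by rule: the 16 largest rises and falls among called genes at or above the table's median level with groups apart, up to 5 per list by smallest p, the 5 highest FPKM per group, the 5 longest and shortest spans, single-exon, zero-count and untested genes, and the 3 widest relative spreads per group; some of these are not reported here. Other genes, the families and the tumour-type words were chosen after their values were seen. Alternatives were TMM factors, library totals, DESeq2 1.42.0, no filter, a threshold of 0.01, at least 4-fold, a replicate block, vehicle counts thinned to dinaciclib depth, and leaving out each library. Figures were drawn with matplotlib 3.10.9.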

Additional observations from a re-analysis of the deposited data

How the results depend on the processing

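The main setting tested and called 248 genes. DESeq2 and no count filter each tested 251 and called 251 (65 higher, 186 lower), the 3 more being Flt3, Ntrk3 and Cd74, and library totals gave 247. By fitted values, at least 4-fold left 148, of which 35 were higher and 113 lower, or 111 lower with zero-count genes at their bound. With TMM factors over the listed genes 108 were lower, 27 genes changed sign and 50 lost their call in the same direction. Among the genes named by rule, those that changed sign were Npm1 (0.34 on the log2 scale), Nup214 (0.26) and Sh2b3 (0.12). Median log2 changes that changed sign with TMM were those of cell cycle genes (1.16), short-lived regulators (1.30, and 0.057 with library totals) and cytoskeleton genes (0.056). These factors take most genes of a table picked for change as unchanged. Leaving out 1 library gave 240 to 249 called genes, 61 to 63 higher and 179 to 186 lower. Among genes at or above the median mean count, 71.9% of the shortest of 4 span bins were higher, in place of 40.3%; that mean includes the dinaciclib libraries, so the limit keeps genes that rose. Thinning vehicle counts to the dinaciclib depth left 234 calls, so depth limits genes with few counts. The replicate numbers did not pair the libraries: same-numbered libraries deviated with correlations of 0.019, −0.025 and −0.14, and with the replicate block 241 genes were called, 59 higher and 182 lower.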
